A study of Mus musculus with 45 samples.

Results

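The aryl hydrocarbon receptor axis was followed through 8 genes, Ahr, Arnt, Ahrr, Tiparp, Cyp1a1, Cyp1b1, Aldh3a1 and Ugt1a6a, out of the 55335 genes of an RNA sequencing study of 2 mouse tumour cell lines. The genes were taken by symbol as members of the pathway, and the pathway was chosen by the measured FPKM of Cyp1a1 in Hepa1-6 cells with and without the compound stk, so values from that contrast are given as a description with no test. Of the 8 genes, between 3 and 6 reached the minimum for testing (1 FPKM in 3 libraries of a model) in any one comparison. FPKM count fragments per kilobase of a transcript and are scaled to library size, so levels can be compared between genes per unit of length.

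CT26 is a mouse colon carcinoma line and Hepa1-6 a mouse liver line. In the drug experiment, unmodified (WT) cells of each line received DMSO as solvent control or stk, a compound known here by that code alone, and were collected at 48 hours. The other experiment used cells with a short hairpin, collected 24 hours after seeding and given no drug. CT26 carried a control hairpin against luciferase (shLucif) or a Soat1 hairpin, of which there were 3 (sh1, sh2, sh3), and Hepa1-6 carried shLucif or a scrambled hairpin. Each of these 10 groups has 3 libraries. Soat1 encodes an enzyme that esterifies cholesterol and has no role in the list studied here. The labels do not say whether a hairpin line is a clone or a pool, nor whether replicate libraries come from separate cultures, so the p-values measure the spread between these libraries, which may be technical. In such bulk samples, fewer cells expressing a gene and less RNA per cell cannot be told apart.

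The aryl hydrocarbon receptor is a transcription factor of the bHLH-PAS family that binds planar aromatic chemicals, dioxins and products of tryptophan. Without ligand it sits in the cytosol with the chaperone Hsp90. With ligand it enters the nucleus, pairs with Arnt and binds DNA at elements with the core GCGTG, and Cyp1a1 is the classic gene that it switches on. Ahrr, a repressor that competes for Arnt, and Tiparp, an enzyme that modifies the receptor with ADP-ribose, are induced by the receptor and limit it in turn. Cyp1a1 and Cyp1b1 are cytochrome P450 enzymes that oxidise aromatic hydrocarbons. Aldh3a1 oxidises aldehydes, and Ugt1a6a couples phenols to glucuronic acid. Mouse hepatoma cells related to Hepa1-6 are a long-used model of Cyp1a1 induction.

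The promoters of the 4 enzyme and repressor genes below are shown because the receptor's binding core can be read in them directly and the genes differed widely in expression. Each is the 250 bases before the RefSeq start (GRCm38.p6), 5′ to 3′ on the gene's strand. Capitals mark the core GCGTG or its reverse complement CACGC.
Cyp1a1, chr9:57697363-57697612, plus strand: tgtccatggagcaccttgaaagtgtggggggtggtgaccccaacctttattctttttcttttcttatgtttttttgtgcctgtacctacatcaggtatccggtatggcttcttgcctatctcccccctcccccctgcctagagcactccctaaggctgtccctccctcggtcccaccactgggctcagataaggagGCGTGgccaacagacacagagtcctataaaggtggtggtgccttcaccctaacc
Ahrr, chr13:74292332-74292581, minus strand: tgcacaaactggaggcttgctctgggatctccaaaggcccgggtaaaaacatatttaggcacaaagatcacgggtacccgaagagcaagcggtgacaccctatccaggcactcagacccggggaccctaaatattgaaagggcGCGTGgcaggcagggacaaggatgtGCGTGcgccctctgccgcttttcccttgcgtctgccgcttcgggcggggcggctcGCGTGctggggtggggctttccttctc
Cyp1b1, chr17:79715062-79715311, minus strand: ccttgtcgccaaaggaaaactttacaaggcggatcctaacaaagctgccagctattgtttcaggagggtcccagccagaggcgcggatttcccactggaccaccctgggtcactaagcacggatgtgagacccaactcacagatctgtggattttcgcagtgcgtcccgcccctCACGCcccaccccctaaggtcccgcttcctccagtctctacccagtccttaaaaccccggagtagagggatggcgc
Ugt1a6a, chr1:88134559-88134808, plus strand: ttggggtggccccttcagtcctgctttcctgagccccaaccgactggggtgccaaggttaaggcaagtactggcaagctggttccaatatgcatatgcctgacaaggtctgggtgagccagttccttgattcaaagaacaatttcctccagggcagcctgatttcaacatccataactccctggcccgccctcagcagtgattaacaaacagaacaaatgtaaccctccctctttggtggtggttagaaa
The Cyp1a1 promoter held 1 core, which begins 54 bases before the start, together with 1 TATAAA box downstream of it. The best known response elements of mouse Cyp1a1 lie further upstream than this window. Ahrr held 3 cores, at 107, 82 and 27 bases before the start. Cyp1b1 held 1 core at 76 bases on the opposite strand and Ugt1a6a held none. Of the other genes with a RefSeq entry, Arnt had 1 core at 29 bases and Tiparp 1 at 170 bases. Entries matched 6 of the 8 genes, all but Ahr and Aldh3a1. Among 32851 mouse promoters of the same length, 28.2% held a GCGTG on either strand, 8.63% at least 2, 2.77% at least 3, and 7.59% a TATAAA on the gene's strand. The longer element TNGCGTG, searched on both strands and containing the core, was found in Ahrr alone of the 6, and in 4.1% of all promoters. These matches describe letters in a window and not binding.

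By position (GRCm38, GENCODE M21), Ahr (ENSMUSG00000019256) lies on chromosome 12 from 35497974 to 35535038, Arnt (ENSMUSG00000015522) on chromosome 3 from 95434388 to 95497240 and Tiparp (ENSMUSG00000034640) on chromosome 3 from 65528410 to 65555518. Cyp1a1 (ENSMUSG00000032315) lies on chromosome 9 from 57687928 to 57703824, Cyp1b1 (ENSMUSG00000024087) on chromosome 17 from 79701537 to 79715061 and Ahrr (ENSMUSG00000021575) on chromosome 13 from 74211118 to 74292331. Aldh3a1 (ENSMUSG00000019102) is on chromosome 11 from 61207537 to 61218421. Ugt1a6a (ENSMUSG00000054545, chromosome 1, 88134809 to 88218997) shares 50.3% of its exon bases with 9 other genes. Of these, 8 are Ugt1a genes on the same strand that use common last exons, Ugt1a6b and Ugt1a7c among them, so how the authors' counting split reads between them makes its values uncertain. Ahr and Tiparp share 2.1% and 5.1% of their exon bases with a gene on the opposite strand, and whether counting used strand is not given in the sources used here.

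Between 11159 and 11555 genes reached 1 FPKM per library, and read totals are unknown. The relative depth estimated from the smallest FPKM steps spanned 0.895 to 1.125 among drug libraries and 0.883 to 1.30 among knockdown libraries. Soat1 was lower with each hairpin in CT26, at 2.52 to 3.55 FPKM over the 9 hairpin libraries against 19.7 to 20.2 with shLucif. CT26 libraries under DMSO held 1 of 8 intestinal epithelium markers (Krt20) at 1 FPKM or more, with Epcam and Lgr5 at 0, and 2 of 6 fibroblast markers. Hepa1-6 libraries under DMSO held 7 of 10 hepatocyte markers, with a summed level of 401 to 432 FPKM. They also held 5 of 8 intestinal epithelium markers, at a summed 242 to 251 FPKM against 25.7 to 29.6 in CT26, and 1 of 6 fibroblast markers, with Cdx1 and Lum at 0. Fibroblast markers summed to 197 to 199 FPKM in Hepa1-6 and 133 to 146 in CT26.

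The libraries labelled Hepa1-6 shLucif stood apart from the rest of that line. Their hepatocyte markers summed to 66.9 to 75.4 FPKM with 4 of 10 at 1 FPKM or more and Ttr and Serpina1a at 0, against 406 to 443 FPKM and 7 of 10 with the scrambled hairpin and 5.77 to 6.99 in CT26 shLucif. Albumin (Alb) stood at 1.49 ± 0.249 FPKM in them against 135 ± 10.7 with scramble (SD, n = 3), and Soat1 at 12.7 to 13.6 against 0.0977 to 0.182. Their profiles correlated at 0.879 to 0.884 with scramble and at 0.863 to 0.870 with CT26 shLucif, where libraries within a group correlated at 0.987 or more. Results that rest on these libraries are therefore given beside those of the scramble libraries, and the part of their makeup in a result was not tested.

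Receptor and partner came first. Under DMSO, Ahr was at 22.1, 22.9 and 21.7 FPKM in Hepa1-6 and at 12.7, 11.4 and 12.1 in CT26. Every Hepa1-6 library was above every CT26 library, and the difference was 0.83 on the log2 scale of FPKM + 1 (SE 0.0597, limma adjusted p = 1.65e-07). Arnt was at 5.89, 5.47 and 5.51 FPKM in Hepa1-6 and 4.34, 4.07 and 3.67 in CT26. That difference also passed the test (0.40, SE 0.062, limma adjusted p = 0.000121) without overlap. Between the lines under DMSO, 4 of the 4 tested genes were called, where 76.8% of all genes tested were, so the count itself is near the background.

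Cyp1a1 separated the lines most widely of the tested genes. In Hepa1-6 it stood at 16.6, 16.3 and 18.4 FPKM under DMSO. In CT26 it was at 0, 0.0207 and 0.0338 FPKM, under a detection level at which a fold could be given. The log2 difference was 4.15 (SE 0.0565, limma adjusted p = 8.56e-14), and Cyp1a1 met the minimum for testing only through the Hepa1-6 libraries, so this difference followed from the minimum. Tiparp ran the other way, at 11.4, 11.3 and 10.3 FPKM in Hepa1-6 against 23.9, 28.9 and 23.0 in CT26 (log2 difference -1.12, SE 0.0732, limma adjusted p = 7.24e-08). Per unit of length, Cyp1a1 was thus above Tiparp in every Hepa1-6 library and Tiparp far above Cyp1a1 in every CT26 library.

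The remaining genes were low in the drug experiment. Ahrr did not exceed 0.0578 FPKM in any library of either line. Cyp1b1 was listed at 0 in all 6 CT26 libraries and at 0.0718, 0.103 and 0.128 FPKM in Hepa1-6 under DMSO. Aldh3a1 was at 0.724, 0.759 and 0.984 FPKM in CT26 and 0.0259, 0.218 and 0.0459 in Hepa1-6, and Ugt1a6a at 0.350, 0.414 and 0.356 against 0.0423, 0.0662 and 0.0152. The last 2 genes were higher in every CT26 library than in any Hepa1-6 library under DMSO, and Cyp1b1 the reverse, but all values are under 1 FPKM and none was tested.

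**Figure D1:**
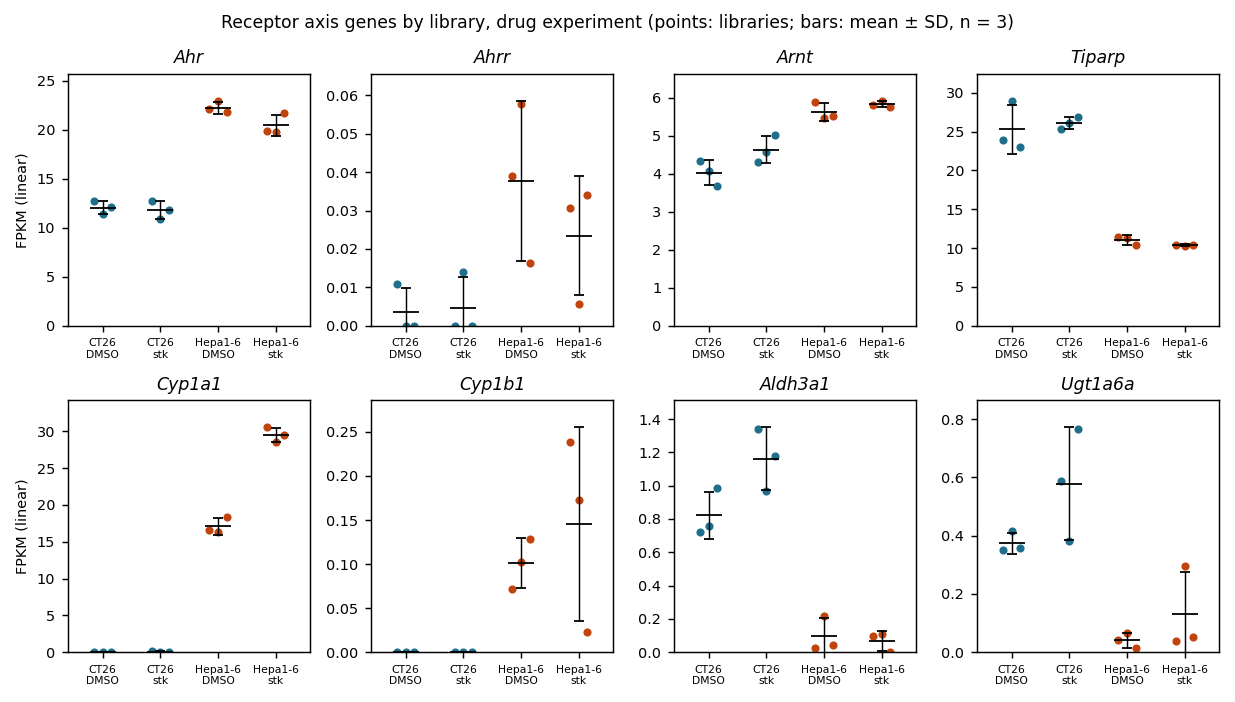
FPKM of the 8 genes (y axis, linear, own scale per panel) in each library of the drug experiment, by line and treatment (x axis). Points are libraries, bars are mean ± SD (n = 3), blue is CT26 and orange Hepa1-6. Cyp1a1 is near 0 in CT26 and between 28.6 and 30.5 FPKM in the Hepa1-6 stk libraries.

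The comparison of stk with DMSO asks what the compound changed in each line. In Hepa1-6, Cyp1a1 stood at 30.5, 28.6 and 29.5 FPKM with stk, against 16.6, 16.3 and 18.4 with DMSO. All 3 stk libraries were above all 3 DMSO libraries, and the means (29.6 ± 0.966 and 17.1 ± 1.13 FPKM, SD, n = 3) were 1.73-fold apart (log2 difference 0.76, SE 0.0554). This contrast is the one that the choice of genes rests on, so nothing is tested in it. Of 11426 genes tested there, 1.53% were called in either direction. By absolute log2 difference, Cyp1a1 held rank 68 among them.

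On the log2 scale, Ahr, Tiparp and Arnt lay closer to their control in Hepa1-6 than Cyp1a1 did. Ahr was at 19.9, 19.8 and 21.7 FPKM with stk against 22.1, 22.9 and 21.7 with DMSO, a log2 difference of -0.12 (SE 0.0489). Every stk library was below every DMSO library, the nearest pair by less than the rounding of these values. Tiparp was at 10.4, 10.2 and 10.4 FPKM with stk, within the range of its controls at the upper end and below it at the lower (-0.08, SE 0.0511). Arnt was at 5.82, 5.91 and 5.75 FPKM (0.04, SE 0.0511) and overlapped its controls. Cyp1b1, at 0.239, 0.173 and 0.0234 FPKM with stk, and Ahrr, at 0.0306, 0.00565 and 0.0340, overlapped their controls as well. So did Aldh3a1, at 0.0988, 0.1085 and 0 FPKM with stk, and Ugt1a6a, at 0.0380, 0.297 and 0.0534. The Ugt1a6a mean was 0.129 FPKM with stk and 0.0412 with DMSO. None of these low genes reached the minimum for testing. Tiparp, Ahrr and Cyp1b1 thus showed no full separation between stk and DMSO. Among 15 other genes known to be induced by the receptor, 8 were tested, of which 3 had a log2 difference above 0 and 5 below, with a median of -0.03 beside 0.00 for all genes. In that list, the P450 gene Cyp2s1 was at 39.3, 38.8 and 39.7 FPKM with stk, above its DMSO libraries at 36.8, 36.5 and 34.9. Nfe2l2 was at 52.2, 52.6 and 54.0 FPKM against 49.1, 49.2 and 49.8, also without overlap. Whether the receptor took part was not tested.

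In CT26, none of the 3 tested genes was called, where 0.748% of all genes tested were and 1656 of 11358 had an unadjusted p under 0.05. Ahr was at 12.7, 10.9 and 11.8 FPKM with stk (log2 difference -0.03, SE 0.0679, limma adjusted p = 0.878). Arnt was at 4.31, 4.56 and 5.03 FPKM (0.16, SE 0.0774, adjusted p = 0.398) and Tiparp at 25.3, 26.1 and 26.9 (0.05, SE 0.085, adjusted p = 0.849). The libraries of both groups overlapped for each of them. None of the 3 had an unadjusted p under 0.05 either.

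Cyp1a1 in CT26 was at 0.115, 0.0206 and 0.0826 FPKM with stk, levels near those of the smallest steps of the table. Aldh3a1 was at 1.34, 0.967 and 1.18 FPKM with stk against 0.724, 0.759 and 0.984 with DMSO, and 1 stk library fell below the highest DMSO library. Ugt1a6a was at 0.587, 0.381 and 0.767 FPKM with stk against 0.350, 0.414 and 0.356. Neither reached the minimum for testing. As a description, the response to stk in Hepa1-6 exceeded that in CT26 by 0.68 for Cyp1a1 (SE 0.0799), and by -0.09 for Ahr, -0.12 for Arnt and -0.13 for Tiparp, where 0.304% of all genes tested were called. The Cyp1a1 figure rests on the pseudocount, since the gene is near 0 in CT26, and came to 0.27 with a pseudocount of 0.1.

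In the knockdown experiment, the level of Ahr set sh3 apart. Ahr was at 4.16, 3.98 and 4.84 FPKM with shLucif in CT26 and at 10.2, 10.1 and 10.2 with sh3, a 2.35-fold rise (log2 difference 1.07, SE 0.0674, limma adjusted p = 4.26e-07). With sh1 it was at 3.96, 3.37 and 3.96 FPKM (-0.16, SE 0.0674, adjusted p = 0.0855), just below the lowest control library but not called. With sh2 it was at 4.16, 4.22 and 4.12 FPKM (-0.04, adjusted p = 0.675). All 3 sh3 libraries were above all 9 other CT26 libraries of this experiment. The rise with sh3 was called under each alternative run, with log2 differences of 1.01 to 1.22. Levels of Ahr in the unmodified CT26 cells of the drug experiment, near 12 FPKM, come from a table that was normalized separately and from cells handled differently, and are not compared.

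Arnt was at 5.51, 5.35 and 6.04 FPKM with shLucif. It stayed there with sh1 (5.47, 5.72 and 5.60 FPKM; log2 difference -0.01, limma adjusted p = 0.953) and with sh2 (5.18, 5.54 and 5.84; -0.02, adjusted p = 0.788), with overlapping libraries. With sh3 it was at 4.86, 4.50 and 5.20 FPKM, a fall that passed the test narrowly (-0.18, SE 0.0612, limma adjusted p = 0.0285). The call was lost without the first sh3 library (adjusted p = 0.0618), without the second (0.113) and without the third shLucif library (0.113).

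Tiparp, the receptor-induced ADP-ribosyltransferase, was the most abundant of the 8 genes in CT26. It stood at 49.8, 52.1 and 50.8 FPKM with shLucif. With sh1 it was at 56.5, 55.6 and 69.1 FPKM (log2 difference 0.24, SE 0.0733, limma adjusted p = 0.0262) and with sh2 at 64.0, 62.7 and 64.5 (0.32, SE 0.0733, adjusted p = 0.00544). With sh3 it was at 41.4, 42.4 and 46.5 FPKM, below every shLucif library (-0.23, SE 0.0733, adjusted p = 0.0227). Tiparp therefore rose with sh1 and sh2 and fell with sh3, while none of the 12 CT26 libraries had more than 0.0236 FPKM of the other feedback gene, Ahrr. Intestinal epithelium markers summed to 25.3 to 34.6 FPKM with sh1 and 23.8 to 28.7 with sh2, against 21.6 to 22.1 with shLucif, with 1 of 8 at 1 FPKM or more and Epcam at 0 in all 3 groups. Fibroblast markers summed to 99.9 to 104 FPKM with sh1 and 93.9 to 102 with sh2, against 111 to 112, with 3 of 6 at 1 FPKM or more and Thy1 at 0 in each. Their part in the differences with these hairpins was not tested. The sh1 call was lost without the third sh1 library (limma adjusted p = 0.0503, log2 difference 0.14) and without the first (0.0761) or the third (0.0626) shLucif library. The sh3 call was lost without the first (limma adjusted p = 0.0805) or second (0.0686) sh3 library, without the second (0.0661) or the third (0.0521) shLucif library, and after quantile normalization (0.0796).

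Aldh3a1, the aldehyde dehydrogenase, was at 3.55, 2.78 and 2.90 FPKM with shLucif. With sh2 it was at 1.05, 1.53 and 1.58 FPKM, below every control library (log2 difference -0.78, SE 0.168, limma adjusted p = 0.00386). With sh1 it was at 2.79, 1.40 and 1.46 FPKM (-0.53, SE 0.168, adjusted p = 0.0287), and the first sh1 library overlapped the controls. With sh3 it was at 3.71, 3.90 and 3.04 FPKM (0.16, adjusted p = 0.453). The sh1 call was lost without its second (limma adjusted p = 0.107) or the third (0.0988) library and without the first (0.0991) or the third (0.0539) shLucif library.

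Ugt1a6a, the glucuronosyltransferase, was at 2.23, 1.77 and 1.25 FPKM with shLucif and at 4.66, 5.04 and 3.85 with sh1, a 2.58-fold rise without overlap (log2 difference 1.01, SE 0.253, limma adjusted p = 0.00875). With sh2 it was at 6.43, 2.81 and 2.56 FPKM (0.77, SE 0.253, adjusted p = 0.0317). The first sh2 library was the highest, and without it the log2 difference was 0.44 (limma adjusted p = 0.0811), and the call was also lost without the second (0.0660) or the third (0.109) shLucif library. With sh3 it was at 0.841, 0.791 and 1.47 FPKM (-0.44, SE 0.253, adjusted p = 0.17). The neighbouring Ugt1a6b and Ugt1a7c, which share exons with it, had log2 differences of 1.40 (adjusted p = 0.0344) and 0.70 (adjusted p = 0.0122) with sh1, and the 3 values are not independent. Ugt1a6b was at 2.19, 0.681 and 0.490 FPKM with shLucif and met the minimum mainly through sh1 and sh2. Its rise therefore leans on the minimum.

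Cyp1a1 stayed near 0 with every hairpin in CT26. It was listed at 0 in all shLucif libraries, at 0.0207, 0 and 0 FPKM with sh1, at 0.0426, 0.0183 and 0.0733 with sh2 and at 0.0815, 0 and 0.0175 with sh3. Cyp1b1 was listed at 0 in all 12 libraries. A raised Ahr mRNA with sh3 was thus measured beside Cyp1a1 and Cyp1b1 levels at or near 0. None of the 3 low genes, Ahrr, Cyp1a1 and Cyp1b1, could be tested.

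By count, 3 of the 5 tested genes were called with sh1 (37.8% of all genes tested were), 3 of 5 with sh2 (38.9%) and 3 of 5 with sh3 (52.5%). The 3 comparisons share their shLucif libraries. Libraries of sh1 correlated with those of sh2 at 0.990 to 0.991, as alike as libraries within sh1 (0.989 to 0.991). With those of sh3 they correlated at 0.954 to 0.966. The calls of Tiparp and Aldh3a1 with sh1 were lost without the minimum (limma adjusted p = 0.0678 and 0.0832) and in a model of the 2 groups alone (0.0660 and 0.0635), and so was that of Ugt1a6a with sh2 (0.0927 and 0.0734) and of Arnt with sh3 (0.0527 and 0.0615), while that of Tiparp with sh3 was lost without the minimum (0.0573). A direct comparison of sh3 with the mean of sh1 and sh2, which leaves out shLucif, was added after these values had been seen. In it all 5 were called, where 60.2% of all genes tested were. Ahr was higher with sh3 (log2 difference 1.17, limma adjusted p = 3.3e-08), as was Aldh3a1 (0.81, adjusted p = 0.000554). Ugt1a6a (-1.33, adjusted p = 0.000299), Tiparp (-0.50, adjusted p = 4.02e-05) and Arnt (-0.16, adjusted p = 0.0193, with overlapping libraries) were lower. Arnt lost its call without the first (limma adjusted p = 0.051) or second (0.105) sh3 library. The sh3 libraries also had higher summed intestinal epithelium markers (42.5 to 46.8 FPKM against 21.6 to 22.1 with shLucif, with 3 and 1 of 8 at 1 FPKM or more) and fibroblast markers (162 to 169 against 111 to 112 FPKM, 3 of 6 in both), with Lgr5 at 0 in both groups. Their part in the difference of Ahr was not tested.

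**Figure D2:**
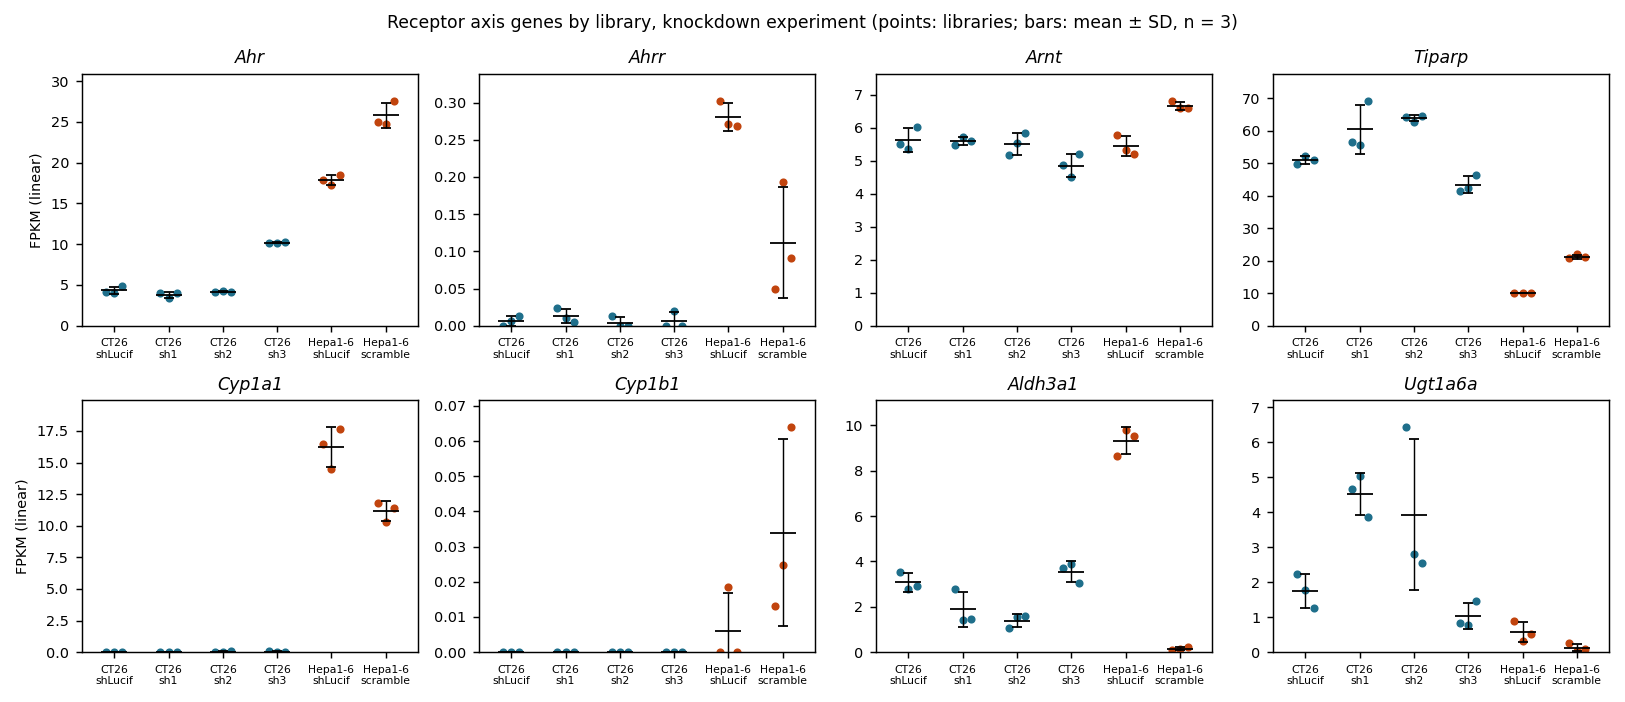
FPKM of the 8 genes (y axis, linear, own scale per panel) in each library of the knockdown experiment, by line and hairpin (x axis). Points are libraries and bars are mean ± SD (n = 3), with CT26 in blue and Hepa1-6 in orange. Ahr in CT26 is near 10.2 FPKM with sh3 and between 3.37 and 4.84 FPKM in the other CT26 groups.

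The 2 control hairpins of Hepa1-6 were compared to show how far controls of this line differ. All 5 tested genes were called between scramble and shLucif, where 68.2% of all genes tested were. Ahr was at 25.0, 24.8 and 27.6 FPKM with scramble and 17.8, 17.3 and 18.5 with shLucif (log2 difference 0.50, SE 0.0528, limma adjusted p = 0.000153). Tiparp was at 20.9, 22.0 and 21.0 FPKM against 10.1 in each shLucif library (1.01, SE 0.0387, adjusted p = 1.12e-06). Arnt was at 6.82, 6.59 and 6.62 FPKM against 5.79, 5.34 and 5.22 (0.25, SE 0.0537, adjusted p = 0.00504). These 3 genes were higher with scramble in every library.

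Cyp1a1 was lower with scramble, at 11.8, 10.3 and 11.4 FPKM against 16.5, 14.5 and 17.6 with shLucif (log2 difference -0.50, SE 0.0815, limma adjusted p = 0.0014). Aldh3a1 was at 0.0796, 0.158 and 0.213 FPKM with scramble and at 8.65, 9.78 and 9.53 with shLucif (-3.17, SE 0.0729, adjusted p = 1.11e-07), and passed the minimum only through the shLucif libraries. The Aldh3a1 level of the libraries labelled Hepa1-6 shLucif was above that of every CT26 shLucif library too, at 2.78 to 3.55 FPKM. The Cyp1a1 level likewise was above both scramble and CT26 shLucif. By group mean, Ahr (17.9 FPKM) and Ugt1a6a (0.570) lay between scramble and CT26 shLucif, and Tiparp (10.1) and Arnt (5.45) below both. The part of the makeup of the libraries labelled Hepa1-6 shLucif in these levels was not tested. Ahrr was at 0.302, 0.271 and 0.268 FPKM in these libraries and 0.0491, 0.194 and 0.0917 with scramble, Cyp1b1 did not exceed 0.0639 FPKM, and Ugt1a6a was at 0.887, 0.319 and 0.505 against 0.251, 0.0393 and 0.104.

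Set against CT26 shLucif within the same table, Hepa1-6 had more Ahr with either control hairpin, by 1.83 on the log2 scale with shLucif (limma adjusted p = 6.79e-13) and by 2.33 with scramble (adjusted p = 1.12e-14). Cyp1a1 was higher by 4.10 and 3.60, with CT26 shLucif listed at 0 in all libraries. Cyp1a1 met the minimum only through the Hepa1-6 libraries, so these differences followed from the minimum. Tiparp was lower, by log2 differences of -2.23 (adjusted p = 7.68e-14) and -1.22 (adjusted p = 5.37e-11). Ugt1a6a was lower as well, with -0.81 (adjusted p = 0.00604) and -1.27 (adjusted p = 0.000135), and met the minimum only through CT26 libraries. For Aldh3a1 the sign depended on the control hairpin, with 1.34 (adjusted p = 8.04e-07) for shLucif and -1.82 (adjusted p = 1.37e-08) for scramble. The scramble libraries held 0.0796 to 0.213 FPKM of Aldh3a1. The gene met the minimum only through other groups, so the scramble difference followed from the minimum. For Arnt only scramble gave a call (0.21, adjusted p = 0.00283, against -0.04, adjusted p = 0.541). The calls were 5 of 6 tested genes with shLucif (72.4% of all genes tested) and 6 of 6 with scramble (79.9%), and both share the CT26 libraries. These counts include the genes that were under the minimum in the lower group.

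**Figure D3:**
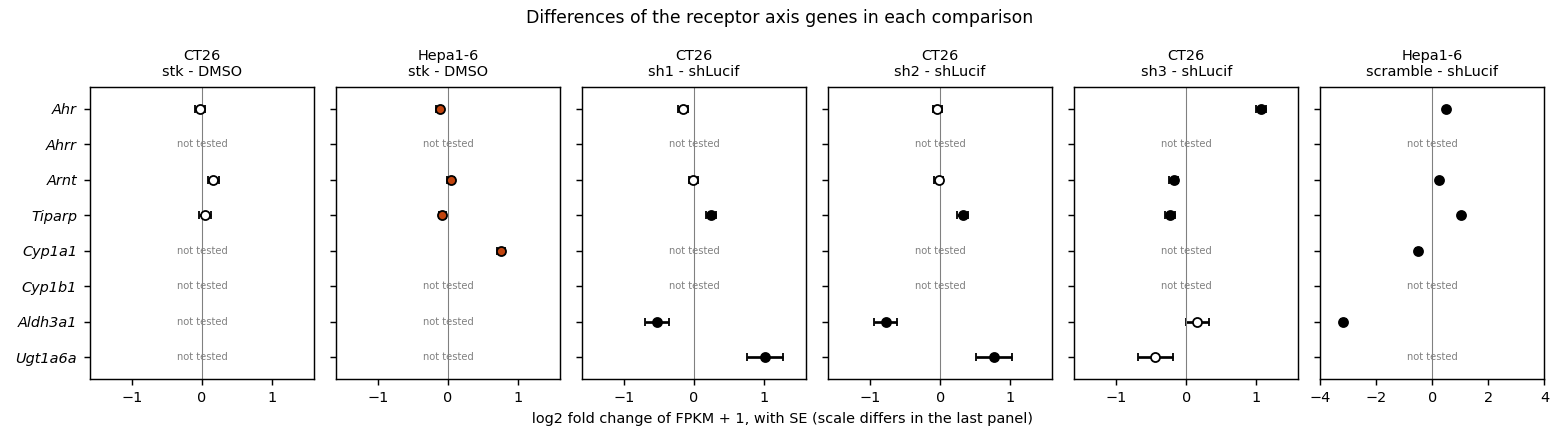
Log2 difference of FPKM + 1 with its SE (x axis) for each of the 8 genes (y axis) in 6 comparisons; filled black points were called, open points were not, and orange points are the untested Hepa1-6 stk contrast. Ahr stands at 1.07 with sh3 and Cyp1a1 at 0.76 with stk in Hepa1-6.

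In the order of levels within Hepa1-6 under DMSO, Ahr (22.2 FPKM), Cyp1a1 (17.1) and Tiparp (11.0) came first, followed by Arnt (5.62), with no overlap of libraries between neighbours, and the other genes were at or below 0.128 FPKM except for 1 Aldh3a1 library at 0.218. In CT26 under DMSO the order was Tiparp (25.3 FPKM), Ahr (12.1), Arnt (4.03) and Aldh3a1 (0.822). By group, Ahr in the drug experiment was highest in Hepa1-6 with DMSO and with stk, and did not separate between the 2 CT26 groups. In the knockdown experiment its order was Hepa1-6 scramble, Hepa1-6 shLucif, CT26 sh3, and then CT26 shLucif, sh2 and sh1, where shLucif overlapped with sh2.

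Over all genes tested, 19.1% were called higher and 18.7% lower with sh1, 18.9% and 20.0% with sh2, 30.9% and 21.6% with sh3, and 35.5% and 24.7% with sh3 against sh1 and sh2. Hsp90ab1, an Hsp90 chaperone that binds the receptor, rose with sh3 from 634 ± 11.4 to 938 ± 88.8 FPKM (SD, n = 3; log2 difference 0.56, limma adjusted p = 3.81e-05). Of the 9 bHLH-PAS partners and relatives, 5 were tested, and 2, 2 and 3 fell with sh1, sh2 and sh3. Arntl, the clock partner of Clock, fell with sh3 from 9.42 ± 0.42 to 5.38 ± 0.476 FPKM (-0.71, adjusted p = 2.06e-06).

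The receptor's coregulators, 8 genes that were all tested, were mostly lower with sh1 (1 higher and 4 lower, median -0.18) and sh2 (1 higher and 5 lower, median -0.24), and split 2 and 2 with sh3 (median -0.01). Rb1, the retinoblastoma protein gene, went from 4.95 ± 0.374 FPKM with shLucif to 2.59 ± 0.369 with sh1 (log2 difference -0.73, limma adjusted p = 2.57e-05) and 2.65 ± 0.149 with sh2 (-0.70, adjusted p = 3.52e-05). Ncoa1, a nuclear receptor coactivator, had differences of -0.51 (adjusted p = 0.000229) and -0.63 (adjusted p = 5.13e-05).

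Of the 15 other genes known to be induced by the receptor, 10 were tested with the hairpins. Among them are Ugt1a6b and Ugt1a7c, which share exons with Ugt1a6a, so their values are not independent of it or of each other. With sh1, 5 rose and 1 fell (median 0.11), with sh2 3 rose and 1 fell (0.10), and with sh3 1 rose and 3 fell (-0.19 beside 0.04 for all genes). Socs2, an inhibitor of cytokine signalling, rose from 1.74 ± 0.234 FPKM to 3.12 ± 0.0708 with sh1 (log2 difference 0.59, limma adjusted p = 0.000158) and 3.71 ± 0.444 with sh2 (0.78, adjusted p = 2.1e-05), and stood at 1.79 ± 0.023 with sh3. Nqo1, a quinone reductase, fell with sh2 (-0.59, adjusted p = 0.0105). Xdh, xanthine dehydrogenase, fell with sh3 from 35.0 ± 1.2 to 21.1 ± 0.504 FPKM (-0.71, adjusted p = 1.68e-07), while Ugdh, which makes the sugar donor for glucuronidation, rose (0.53, adjusted p = 7.35e-05). Compared directly with sh1 and sh2, 2 of the 10 were higher with sh3 and 6 lower, with Ugt1a6b (-1.46), Xdh (-1.05) and Ugt1a7c (-0.88) lowest and Nqo1 higher (0.74, adjusted p = 0.000534). Every sh3 library was under 1 FPKM for Ugt1a6b, which met the minimum only through the other groups. Cyp1a2, the liver P450 next to Cyp1a1, was below 0.05 FPKM as a group mean everywhere.

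Among the enzymes that work with P450s, 6 of 7 were tested. With sh1, 2 fell (median -0.07), with sh2 3 fell (-0.11), and with sh3 2 rose (0.10). Ephx1, the microsomal epoxide hydrolase that acts on the epoxides P450s form, went from 61.2 ± 2.6 FPKM with shLucif to 40.5 ± 3.26 with sh1 (log2 difference -0.59, limma adjusted p = 1.17e-05) and 38.2 ± 1.28 with sh2 (-0.67, adjusted p = 4.53e-06), and was at 64.4 ± 0.807 with sh3. Sh3 differed from the mean of sh1 and sh2 by 0.70 (adjusted p = 3.38e-07). With stk in CT26, limma called 0 of the 41 tested genes of all pathway lists, and 7 had an unadjusted p under 0.05, beside 0.748% called and 1656 of 11358 with an unadjusted p under 0.05 over all genes tested.

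**Figure D4:**
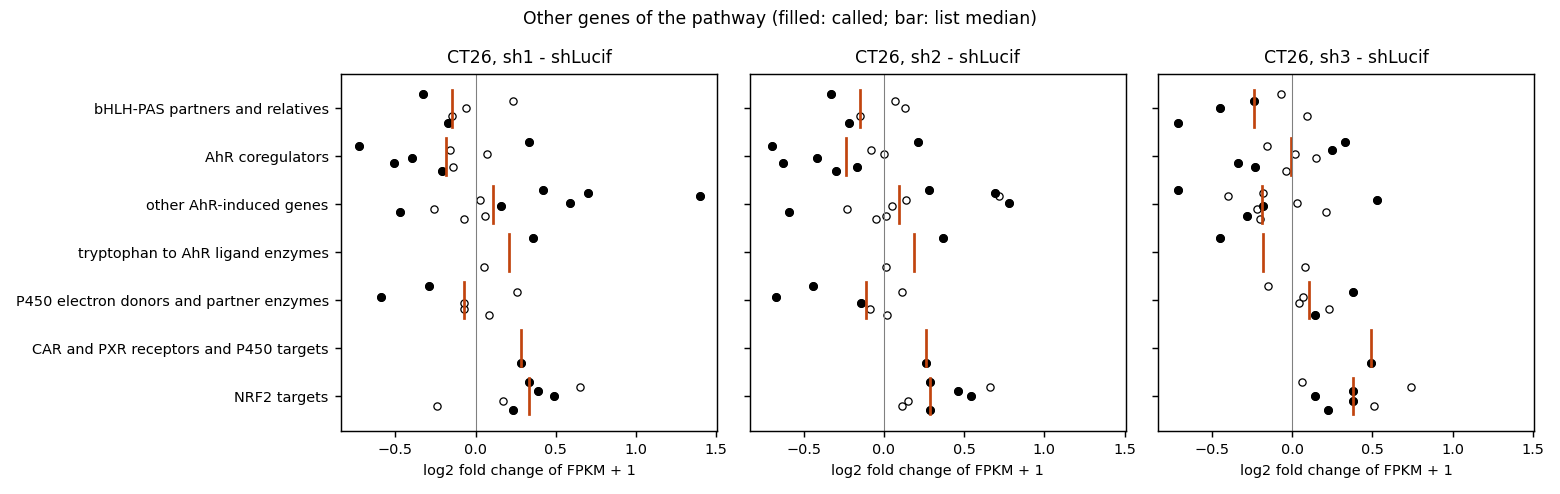
Log2 difference of FPKM + 1 (x axis) of each tested gene of 7 pathway lists (y axis) for sh1, sh2 and sh3 against shLucif in CT26. Filled points were called by limma, open points were not, and orange bars are list medians, which for the genes induced by the receptor are 0.11, 0.10 and -0.19.

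Between the lines under DMSO, several genes known to respond to the receptor differed widely in level. Cyp2s1, another P450, was at 36.0 ± 1.01 FPKM in Hepa1-6 and 0.0883 ± 0.0133 in CT26 (SD, n = 3; log2 difference 5.09, limma adjusted p = 8.14e-15), and Serpinb2, a protease inhibitor, at 9.37 ± 0.992 against 0.0899 ± 0.055 (3.25, adjusted p = 5.08e-10). Both met the minimum for testing only through the Hepa1-6 libraries, so their differences followed from it. Ereg, which encodes the growth factor epiregulin, was listed at 0 in Hepa1-6 and stood at 21.4 ± 0.69 FPKM in CT26, and Xdh was at 1.49 ± 0.305 against 16.6 ± 1.21 (-2.83, adjusted p = 7.06e-11). Of the 10 tested genes of that list, 2 were higher and 6 lower in Hepa1-6, with a median of -0.78 beside 0.01 for all genes, of which 38.4% were called higher and 38.5% lower. Epas1, a hypoxia factor that also pairs with Arnt, was higher in Hepa1-6 (5.31 ± 0.194 against 0.00281 FPKM, 2.65, adjusted p = 2.31e-12), and it too met the minimum only through that line. Between the Hepa1-6 controls, Cyp2s1 (2.67, adjusted p = 8.6e-08), Serpinb2 (3.73, adjusted p = 2.87e-08) and Arnt2 (2.02, adjusted p = 2.9e-07) were higher with scramble and Ereg (-4.01, adjusted p = 3.01e-08) lower. Arnt2, Serpinb2 and Ereg met the minimum only through the group where each was higher. For Serpinb2 the shLucif libraries lay near 1 FPKM and would not have met it by themselves.

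Likeness to Cyp1a1 was measured over the 10 group means of log2(FPKM + 1), each centred within its line and table, as the root mean square difference, among 11854 genes with a mean of at least 1 FPKM. The closest were Tbc1d25 (0.0756), ENSMUSG00000116138 (0.0886, C030006K11Rik in GENCODE M21), Btbd6 (0.0970), ENSMUSG00000117098 (0.101, named Myl12b in GENCODE M21) and Mtfmt (0.102). Cyp1a1's own root mean square deviation from its line means was 0.204, and the median gene's was 0.147. No other gene of the axis was among these 5. Since Cyp1a1 is flat near 0 in CT26, its pattern is set by the 4 Hepa1-6 groups. After centring, these enter as stk against DMSO and scramble against shLucif. The former is the contrast by which the pathway was chosen. The latter rests on the libraries labelled Hepa1-6 shLucif, which stood apart from the line.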

How the data were processed

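The authors deposited 1 table of FPKM per experiment, each with 55335 genes. Per the labels' protocols, total RNA was sequenced in paired reads and Skewer removed adapters and poor bases. GRCm38, HISAT2, STAR, DESeq2 and edgeR are named in the submitters' processing notes, and which of them made the FPKM is not given in the sources used here. Each table was assigned to its experiment by its column names, since the table names are swapped. Of 45 labelled samples, 30 matched a column (12 in the drug table, 18 in the knockdown table), and 21 columns that match no label were not used. The labels give 1 date per experiment, so date and experiment cannot be told apart. Tests stayed within a table, because the tables were normalized separately.

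Differences were tested, two-sided, on log2(FPKM + 1) with limma 3.58.1 (R 4.3.3, trended eBayes), a scale that understates changes of low genes. A gene entered the test where 3 or more libraries of a model reached 1 FPKM, and was called where its Benjamini-Hochberg adjusted p over all such genes was under 0.05. All adjusted p-values in the text are from this test. The 4 CT26 hairpin groups shared 1 model, as did the 4 drug groups for line differences. With 3 libraries against 3, an exact permutation test cannot go below p = 0.1, so none was used. The procedure was tested on simulated data. Marker sums are FPKM.

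The 8 genes and the lists (8 pathway lists of 68 genes and 5 marker lists) were chosen with earlier results of these data known. Named genes are all 8 in every group, the called list genes with the largest log2 differences (at most 6 per contrast), and the 5 genes most like Cyp1a1. Cyp1a2, Alb, Krt20, Epcam, Lgr5, Ttr, Serpina1a, Cdx1, Lum, Thy1 and the list genes named in the closing section that are outside this rule were chosen after their values were seen. So were Nfe2l2 and Cyp2s1 with stk in Hepa1-6. Alternatives were the pseudocount (0.1), no minimum, a minimum of 5 FPKM, quantile normalization, other models, a replicate block and leaving out each library. Relative depth is the most frequent ratio of low FPKM steps within 0.5 on the log2 scale. The Soat1 hairpins of Hepa1-6 were not analysed here, and counts over the list of the receptor's cytosolic partners are not reported here (Hsp90ab1 is named by the rule above).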

Additional observations from a re-analysis of the deposited data

How the results depend on the processing

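Of 525 alternative fits of tested genes, 486 kept direction and call, 30 kept the direction and lost a call, and 9 reversed a difference that was not called. The reversals came from leaving out 1 library: over those fits Ahr with stk in CT26 ran from -0.08 to 0.02 (0.02 without the second stk library, 0.00 without the first DMSO library) and Tiparp from -0.01 to 0.15. Arnt ran from -0.04 to 0.04 with sh1 (0.01 without the first sh1 library) and from -0.06 to 0.02 with sh2 (0.01 without the first sh2 library), Ahr from -0.09 to 0.03 with sh2, and Arnt from -0.08 to 0.00 between the shLucif groups of the lines. Counts of called genes of the axis moved as follows: with sh1 from 3 to 1 without a minimum, to 1 with a minimum of 5 FPKM and to 1 in a model on the 2 groups alone; with sh2 from 3 to 1 with a minimum of 5 FPKM; with sh3 from 3 to 1 without a minimum; between the lines under DMSO from 4 to 7 without a minimum; and for sh3 against sh1 and sh2 from 5 to 3 with a minimum of 5 FPKM. A higher minimum tests fewer genes and the absent minimum tests more; the cause of the other moves was not tested. Leaving out 1 library gave 1 to 3 calls with sh1, 2 to 3 with sh2 and 1 to 3 with sh3. The scramble count was 4 without any 1 Hepa1-6 shLucif library, since Aldh3a1 then fails the minimum. The line difference of Cyp1a1 went from 0.68 to 0.27 with a pseudocount of 0.1. Over all genes, calls with stk in CT26 went from 85 to 14 without a minimum, 133 with a minimum of 5 FPKM, 204 in a model of all drug libraries and 2 to 92 without 1 library. Replicate numbers did not pair the libraries (correlations of deviations from -0.05 to 0.105): a replicate block gave 4 calls over all genes with stk in CT26, 2 of the axis with sh2 (Ugt1a6a, limma adjusted p = 0.0532), and changed no other call of the axis. The sh1 columns carry no single number and were left out of the block. Read totals are unknown, so no limit of detection can be given for genes under 1 FPKM.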

Other observations

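Of 10 genes for enzymes that make receptor ligands from tryptophan, few reached the minimum for testing: 1 was tested with stk in CT26 and 2 in the hairpin comparisons. Ido1, which opens the tryptophan ring, did not exceed a group mean of 0.0186 FPKM and Tdo2, its liver counterpart, 0.0483. Kyat1, a kynurenine aminotransferase, rose with sh1 (2.40 ± 0.308 to 3.35 ± 0.341 FPKM, SD, n = 3; log2 difference 0.36, limma adjusted p = 0.00773) and sh2 (0.37, adjusted p = 0.00636) and fell with sh3 to 1.48 ± 0.134 FPKM (-0.45, adjusted p = 0.00111). Compared directly with sh1 and sh2, it was lower with sh3 (-0.81, adjusted p = 3.58e-06). Kyat3, the related enzyme, was listed at 0 in CT26 and stood at 5.72 ± 0.315 FPKM in Hepa1-6 under DMSO, 9.56 ± 0.425 with scramble and 0.333 ± 0.052 in the libraries labelled Hepa1-6 shLucif.

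The NRF2 targets, antioxidant genes that overlap in function with receptor targets, gave 4 of 7 higher with each of sh1, sh2 and sh3 (medians 0.33, 0.29 and 0.38), beside 19.1%, 18.9% and 30.9% of all genes tested (medians 0.00, -0.01 and 0.04), in 3 comparisons that share their controls. These 7 genes do not include Nqo1, which was counted among the genes induced by the receptor. Its control mean of 5.92 FPKM lay above the means for sh1 (4.08) and sh2 (3.60). The sh3 mean of Nqo1 was higher than the control mean, at 7.01 FPKM. Hmox1, heme oxygenase, rose by log2 differences of 0.49 (limma adjusted p = 8.68e-06), 0.54 (adjusted p = 4.21e-06) and 0.14 (adjusted p = 0.0194). Of the CAR and PXR receptors and their P450 targets, only Rxra, the partner receptor, was tested with the hairpins. It rose with sh1 (0.28, adjusted p = 0.00154), sh2 (0.26, adjusted p = 0.00277) and sh3 (0.49, adjusted p = 1.89e-05). Nr1i2 and Nr1i3, the receptors themselves, stayed below 1 FPKM in every group. Cyp3a13, the single P450 of that list that was tested, was higher in Hepa1-6 than in CT26 under DMSO (4.33 ± 0.429 against 0.528 ± 0.197 FPKM; 1.81, adjusted p = 2.89e-08), and met the minimum only through the Hepa1-6 libraries.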
